A study of Mus musculus with 6 samples.

Results

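The 8 genes followed here belong to arginine and creatine metabolism, measured in mouse kidney: Gatm, Gamt, Ass1, Asl, Arg2, Ckb, Ckmt1 and Oat. They were taken by symbol from the deposited table, in which all 8 of 8 were found, each as 1 Ensembl gene, among 51804 gene symbols, and all 8 were among the 15017 genes tested. The RNA sequencing libraries were 3 labelled knockout, with genotype Ccnb1f/f;Cdh16-Cre, and 3 controls, with genotype Ccnb1f/f, so every library carries floxed alleles of Ccnb1, the gene of cyclin B1. Cre is driven by the promoter of Cdh16, a cadherin of renal tubular epithelium, while the labels give kidney, where vessels, stroma and immune cells are also present, as the source of the RNA (the extraction protocol names cultured cells as well). The sources used here do not give the age or strain of the mice or the floxed exons, nor do they say that each replicate is its own animal. The p-values therefore cover only how much these libraries vary, and that variation may be technical.

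The kidney is a main site of arginine synthesis in mammals. Citrulline released by the intestine enters proximal tubule cells, argininosuccinate synthase (Ass1) joins it to aspartate, and argininosuccinate lyase (Asl) splits the product into arginine and fumarate. Mitochondrial arginase (Arg2) can cleave arginine to ornithine and urea, and ornithine aminotransferase (Oat) passes ornithine on towards glutamate and proline. Arginine is also the start of creatine: the mitochondrial enzyme arginine:glycine amidinotransferase (Gatm) makes guanidinoacetate, and guanidinoacetate N-methyltransferase (Gamt), best known from liver, methylates it to creatine. Creatine kinases store energy as phosphocreatine, with Ckb in the cytosol and Ckmt1 in mitochondria.

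The libraries held 16061435 to 21261226 estimated counts. Ccnb1 itself had 18, 15 and 11 counts in the knockout-labelled libraries, and 11, 17 and 7 in the controls, too few for the targeted gene to test the labels. In a principal component analysis control 2 lay apart on the leading axis, which held 30.2% of variance, at -43.5 against -3.63 to 16.8 for the other 5 libraries. The tissue label was matched by kidney markers. Over the 6 libraries, proximal tubule markers of the convoluted segments summed to 11559 to 14644 CPM (counts scaled to the library total after TMM adjustment). Thick ascending limb markers summed to 7779 to 8887 CPM.

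The 8 genes spanned a wide range of levels, and the same broad order was seen in both groups. Levels were compared per length with the authors' FPKM values (fragments scaled to transcript length and library total) summed over each gene's transcripts, given as mean ± SD over the 6 libraries. Ass1 was the most abundant at 1087 ± 124 FPKM, above 99.8% of tested genes, and was 8.34-fold higher than the next gene, Asl. Asl at 130.3 ± 16.9 FPKM and Oat at 117 ± 21.7 FPKM overlapped, with Asl higher in 4 of 6 libraries. Oat also overlapped Ckb at 83.4 ± 12.5 FPKM, and was the higher of the pair in 5 of 6 libraries. The ranges of Ckb, Ckmt1 at 30.6 ± 3.77 FPKM, Gamt at 16.1 ± 1.86 FPKM and Gatm at 6.47 ± 2.06 FPKM were separate from each other in all 6 libraries. Arg2 was the lowest at 3.41 ± 1.81 FPKM, and its range overlapped that of Gatm. Gatm, which makes the creatine precursor, stood above 45.4% of tested genes in FPKM, and below Gamt in each of the 6 libraries. That level rests on 159 to 385 estimated counts per library. It was not compared with other kidney data, so it describes these libraries only.

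**Figure D1:**
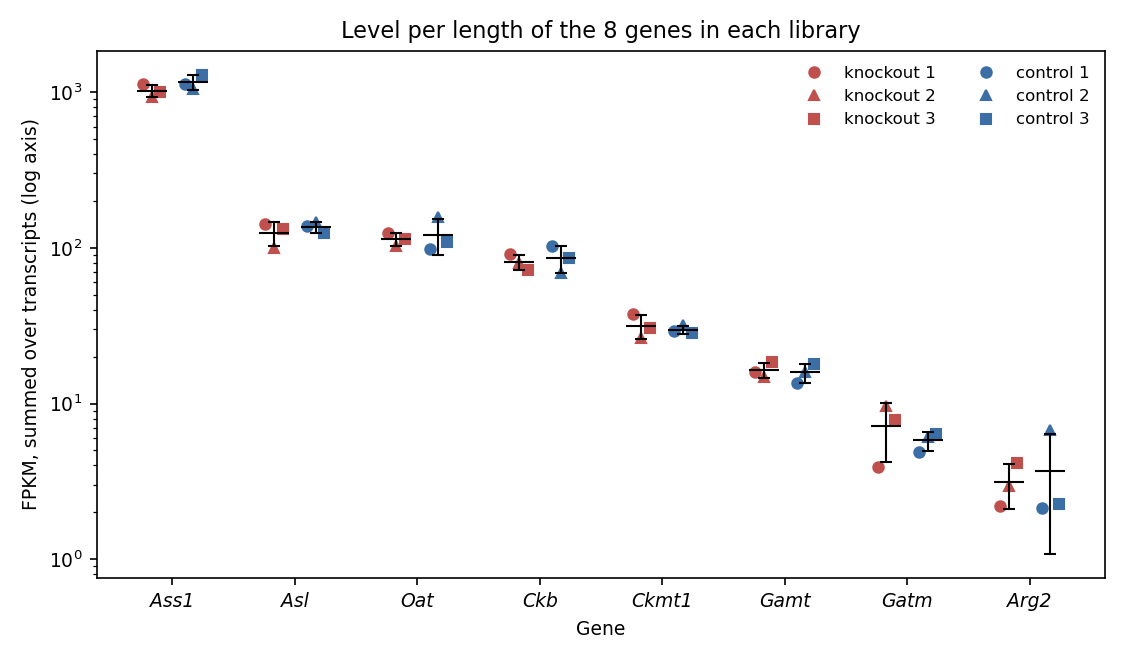
FPKM of the 8 genes (log axis) in each library, with red symbols for knockout-labelled libraries, blue for controls, the symbol shape giving the replicate, and black bars the group mean ± SD (n = 3). Red and blue points overlap for every gene, and Ass1 lies far above the others.

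Near-identical copies bear on how these levels can be read. The main Ass1 transcript shared 55.3% of its 50-base words with Gm5424, a processed pseudogene, and the longest run of letters common to both was 398 bases. The table lists Gm5424 at 309 to 441 CPM, which is 15.7% to 17.4% of the sum of both genes, so that reads of Ass1 may have been divided between them. Ckb shared 21.7% of its words with the pseudogene Gm12892, which was listed at 0 in all 6 libraries. The main transcripts of Gatm, Gamt, Asl, Ckmt1 and Oat shared none with another gene in GENCODE M21. Arg2 overlaps Vti1b on the opposite strand and 17.1% of its words lie in Vti1b transcripts; Vti1b stood at 62.3 to 84.6 CPM, and the sources used here do not say whether counting used strand.

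Most members were counted almost wholly on 1 annotated protein-coding transcript. The Ckmt1 transcript ENSMUST00000078222 took 96.6% of the gene's estimated counts, and ENSMUST00000000317 took 2.00%. RefSeq promoter windows on GRCm38.p6 matched 6 of the 8 genes, and among these Ckmt1 had a second start. Its RefSeq starts lie at positions 121357776 and 121358610 of chromosome 2 (GRCm38, plus strand). The values here do not tell which start each transcript uses. The 100 bases before each Ckmt1 start are shown with those of Ckb, the other creatine kinase. Sequences run 5′ to 3′ on the gene's strand, and capitals mark letters of a TATA box (TATAAA) or CCAAT box (CCAAT), on either strand; the printed matches do not overlap each other.

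Ckmt1 upstream start, chr2:121357676-121357775, plus strand: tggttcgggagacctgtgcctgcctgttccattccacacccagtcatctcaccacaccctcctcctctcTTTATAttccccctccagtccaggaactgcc
Ckmt1 downstream start, chr2:121358510-121358609, plus strand: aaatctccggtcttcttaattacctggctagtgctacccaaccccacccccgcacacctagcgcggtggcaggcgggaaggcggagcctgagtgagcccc
Ckb start, chr12:111672339-111672438, minus strand: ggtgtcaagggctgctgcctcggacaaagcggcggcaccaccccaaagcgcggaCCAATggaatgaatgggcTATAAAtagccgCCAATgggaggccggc

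The upstream Ckmt1 window holds 1 match to TATAAA, on the opposite strand, and the Ckb window holds 1 match on the gene's own strand and 2 to CCAAT. The downstream Ckmt1 window holds neither. Among 32851 RefSeq windows of the same length, 5.56% hold TATAAA and 18.9% hold CCAAT on either strand. Among the other 4 genes, the windows of Oat and Gatm hold CCAAT and none holds TATAAA. These matches describe letters and say nothing about which factors bind there.

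None of the 8 genes passed the threshold between the knockout-labelled libraries and the controls. In the quasi-likelihood test of edgeR, 0.0133% of the 15017 tested genes passed an adjusted p of 0.05, and no member did, with adjusted p = 0.999 for each. DESeq2 called 0.0817% of its tested genes and no member. At an unadjusted p under 0.05 stood 3.23% of tested genes and 0 of the 8. The groups overlapped for all 8, where 4.1% of tested genes lay wholly higher and 4.08% wholly lower in the knockout-labelled libraries. By sign, 5 members were lower and 3 higher, beside 51% of all tested genes lower, and the median log2 fold change was -0.10 over the members and -0.01 over all tested genes. The median absolute log2 fold change of the members, 0.11, was close to the 0.12 of all tested genes.

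Ass1, the first of the arginine-forming enzymes (ENSMUSG00000076441, chromosome 2, 31470207 to 31520672, GRCm38), stood at 1902, 1600.4 and 1669 CPM in the knockout-labelled libraries 1 to 3. The controls 1 to 3 held 1970.3, 1659.7 and 2261 CPM of Ass1. Control 3 was the highest and knockout 2 the lowest, with control 2 between 2 libraries of the other group. The means of Ass1 were 1724 ± 158 against 1964 ± 301 CPM (SD, n = 3), which in log2 is a difference of -0.19 (SE 0.15, 95% confidence interval -0.53 to 0.16), and the value was -0.07 without control 3 and -0.30 without control 2. With Gm5424 added to Ass1 it was -0.19 as well.

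Asl (ENSMUSG00000025533, chromosome 5, 130011258 to 130029247) stood at 258, 177 and 223 CPM in the knockout-labelled libraries, and at 255, 238 and 224 CPM in the controls. Both the highest and the lowest library carried the knockout label, and the controls lay between them. The fold change in log2 came to -0.12 (SE 0.15, 95% confidence interval -0.46 to 0.21), and 0.00 without knockout 2. The ratio of Ass1 to Asl, 2 enzymes that act in sequence, was taken within each library, where library scaling cancels and gene length is constant. In CPM it was 7.37, 9.03 and 7.49 in the knockout-labelled libraries, and 7.72, 6.97 and 10.1 in the controls. The difference of -0.04 in log2 gave p = 0.8 when labels were permuted exactly (two-sided), where 3 against 3 allows no p under 0.1.

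Asl was the member whose estimated counts were spread over several transcripts. ENSMUST00000159619, with 18 exons, took 61.2%, 64.9% and 68.0% of the gene's counts in the knockout-labelled libraries, and 68.1%, 71.0% and 69.9% in the controls. ENSMUST00000161094, with 17 exons, took 30.1%, 23.3% and 17.3% against 21.03%, 15.2% and 17.7%. For the 18-exon form the groups did not overlap, but they nearly touched, at 67.99% in knockout 3 and 68.05% in control 1. Such separation was not particular to Asl. The main Ckmt1 transcript took 97.12% to 97.25% against 95.62% to 96.3% in the controls. The main Gatm transcript took 98.33% to 98.74% against 99.49% to 100%. How many of all transcripts separate in this way was not counted. Among tested genes, 4.1% lay wholly higher and 4.08% wholly lower by CPM. Knockout 1 had the largest share of the 17-exon form, for which knockout 3 lay among the controls and the groups overlapped. These shares are the authors' estimates, which divide reads that fit several transcripts, and their difference between groups was not tested.

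**Figure D2:**
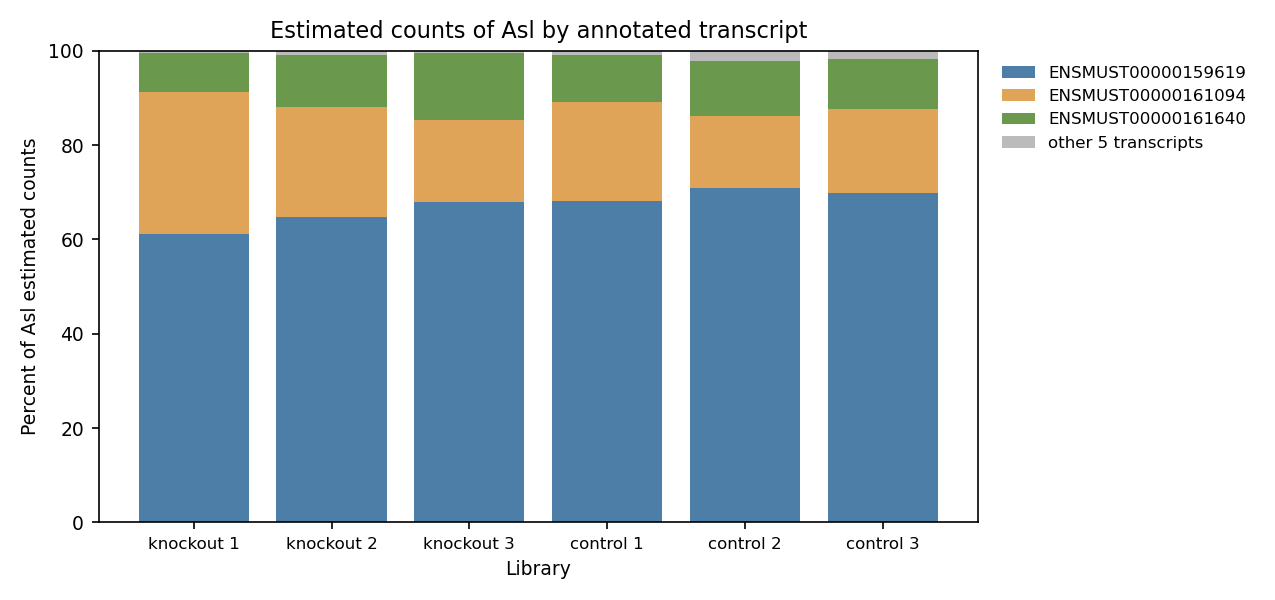
Percent of the estimated counts of Asl assigned to its 3 main annotated transcripts and the other 5, stacked to 100, in each library. The blue share (ENSMUST00000159619) runs from 61.2% in knockout 1 to 71.0% in control 2.

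The enzymes that draw on arginine and ornithine, Arg2 and Oat, were both highest in control 2. Arg2 (ENSMUSG00000021125, chromosome 12, 79130777 to 79156301) had 54, 68 and 127 counts in the knockout-labelled libraries, and 52, 179 and 57 in the controls. Scaled, this is 3.13, 4.29 and 5.86 CPM against 3.16, 9.07 and 3.33 CPM. Control 2 was at 2.72 times the median of the other 5 libraries, and the remaining controls lay beside knockout 1 at the low end. The fold change of Arg2 in log2 came to -0.23 (SE 0.44, 95% confidence interval -1.25 to 0.79), the widest interval of the 8, and it was 0.45 without control 2.

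Oat (ENSMUSG00000030934, chromosome 7, 132557478 to 132576398) stood at 267, 222 and 239 CPM in the knockout-labelled libraries, and at 218, 319 and 243 CPM in the controls. Control 2 was again the highest, at 1.33 times the median of the others. The fold change in log2 came to -0.10 (SE 0.16, 95% confidence interval -0.46 to 0.26) with it and 0.07 without it. The ratio of Arg2 to Oat differed by -0.01 in log2 between the groups (exact permutation p = 1), and by 0.33 without control 2.

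Odc1, ornithine decarboxylase, which opens the route from ornithine to polyamines, had the opposite pattern in that library. It stood at 299 CPM in control 2 and at 711 to 1522 CPM in the other 5. Summed markers of the straight proximal tubule were lowest in control 2, at 4200 CPM against 5345 to 7567 CPM elsewhere. Of the 7 genes in that list 5 were lowest there, while Slc6a18 was highest, at 989 CPM against 696 to 778 CPM, and Slc5a1 stood at 84.2 CPM within the range of the others. Summed markers of intercalated cells were highest in control 2, at 294 CPM against 196 to 213 CPM, as was each of the 6 genes. Summed markers of podocytes were also highest there, at 504.1 CPM against 386 to 418 CPM, though not for every gene of the list. So were those of principal cells (750 against 429 to 690 CPM) and tubular injury (947 against 705 to 921 CPM). The convoluted proximal tubule sum was lowest in control 2, at 11559 against 12241 to 14644 CPM. Again this did not hold for every gene of these lists. The sums for thick ascending limb, distal convoluted tubule and endothelium in control 2 lay within the range of the other libraries. The part of these markers in the values of Arg2, Oat and Odc1 was not tested. In whole kidney, fewer cells of a type and less RNA per cell cannot be told apart.

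**Figure D3:**
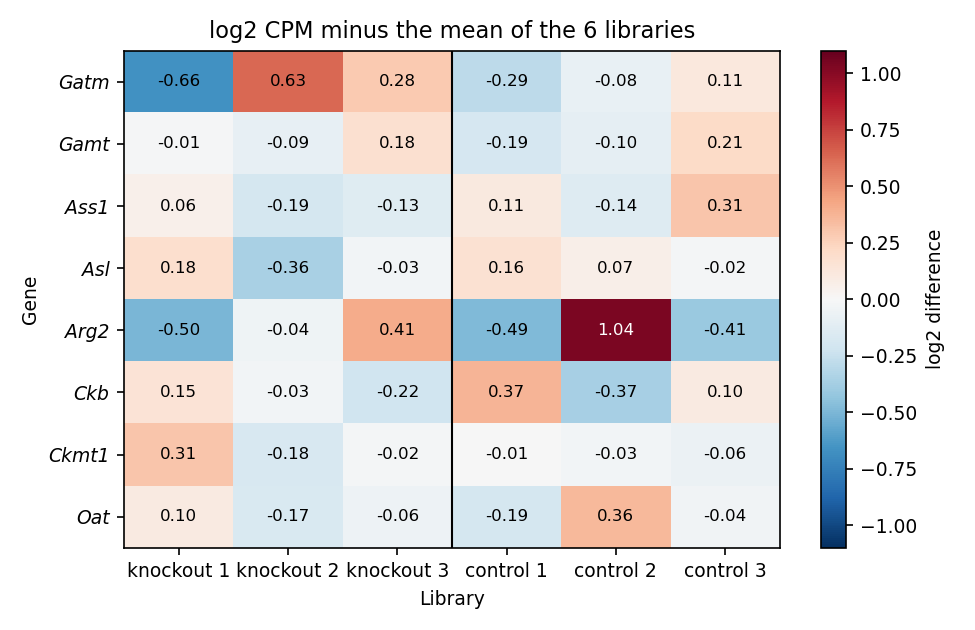
Colour and number give log2 CPM of each gene (rows) in each library (columns) minus the gene's mean over the 6 libraries, with the black line between the groups. Arg2 in control 2 (1.04) and Gatm in knockout 1 (-0.66) and knockout 2 (0.63) are the largest departures, and no row changes colour at the line as a whole.

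The creatine-forming enzymes differed in how much they varied between libraries. Gatm (ENSMUSG00000027199, chromosome 2, 122594467 to 122611303) had 159, 359 and 385 counts in the knockout-labelled libraries, and 197, 272 and 270 in the controls, or 9.21, 22.6 and 17.8 CPM against 12.0, 13.8 and 15.8 CPM. The 3 knockout-labelled libraries differed by 2.46-fold from lowest to highest, and the 3 controls, which lay between those extremes, by 1.32-fold. The means of Gatm were 16.5 ± 6.80 against 13.8 ± 1.91 CPM (SD, n = 3), which in log2 is a difference of 0.26 (SE 0.30, 95% confidence interval -0.43 to 0.94). Without knockout 1 it was 0.54, at an adjusted p of 0.999 in edgeR, and without knockout 2 it was -0.04.

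Gamt (ENSMUSG00000020150, chromosome 10, 80258151 to 80261012) was steadier, at 15.7, 14.9 and 17.9 CPM in the knockout-labelled libraries, and 13.9, 14.8 and 18.3 CPM in the controls. The lowest and the highest library were both controls. In log2 its fold change came to 0.05 (SE 0.15, 95% confidence interval -0.31 to 0.40), with values of -0.03 without knockout 3 and -0.03 without control 1. The CPM ratio of Gatm to Gamt was 0.587, 1.52 and 0.992 in the knockout-labelled libraries, and 0.860, 0.932 and 0.860 in the controls. Its difference of 0.12 in log2 gave p = 0.7 in the exact permutation test, and was -0.21 without knockout 2.

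The spread within groups set Gatm and Arg2 apart from the other members. As a pooled SD of log2 CPM within groups it was 0.48 for Gatm and 0.62 for Arg2, above 91.0% and 96.0% of all tested genes. The other 6 members lay between 0.17 (Gamt) and 0.29 (Ckb), around the median of 0.20 over all tested genes. Arg2 is also the member of lowest count, at 52 to 179. Gatm had 159 to 385 counts, beside 229 to 388 for the steadier Gamt. The part of counting error in these spreads was not tested.

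Ckb, the cytosolic creatine kinase (ENSMUSG00000001270, chromosome 12, 111669361 to 111672338), stood at 132, 116 and 102 CPM in the knockout-labelled libraries, and at 153, 91.6 and 126 CPM in the controls. Control 1 was the highest and control 2 the lowest, so the other group lay within the controls. The fold change in log2 came to -0.09 (SE 0.19, 95% confidence interval -0.53 to 0.35), and 0.09 without control 1. Ckmt1, the mitochondrial form (ENSMUSG00000000308, chromosome 2, 121357714 to 121363737), stood at 56.6, 40.4 and 44.9 CPM against 45.5, 44.7 and 43.8 CPM. Its controls lay within 1.04-fold of each other, between the knockout-labelled libraries. The fold change of Ckmt1 in log2 came to 0.08 (SE 0.14, 95% confidence interval -0.23 to 0.39), and -0.06 without knockout 1.

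The ratio of Ckb to Ckmt1 in CPM was 2.33, 2.86 and 2.26 in the knockout-labelled libraries, and 3.37, 2.05 and 2.89 in the controls. The difference of -0.14 in log2 was within the spread (exact permutation p = 0.6) and was 0.02 without control 1. With p-values adjusted over the 4 ratios, each stood at 1. The muscle creatine kinases were close to absent: Ckm had 2 counts in knockout 2, 1 in control 3 and 0 in the other 4 libraries. Ckmt2 had 0 in all 6, which allows up to 0.141 to 0.187 CPM per library, on unadjusted totals, for counting error only. Markers of skeletal muscle summed to 1.11 to 2.06 CPM over all 7 genes of that list.

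**Figure D4:**
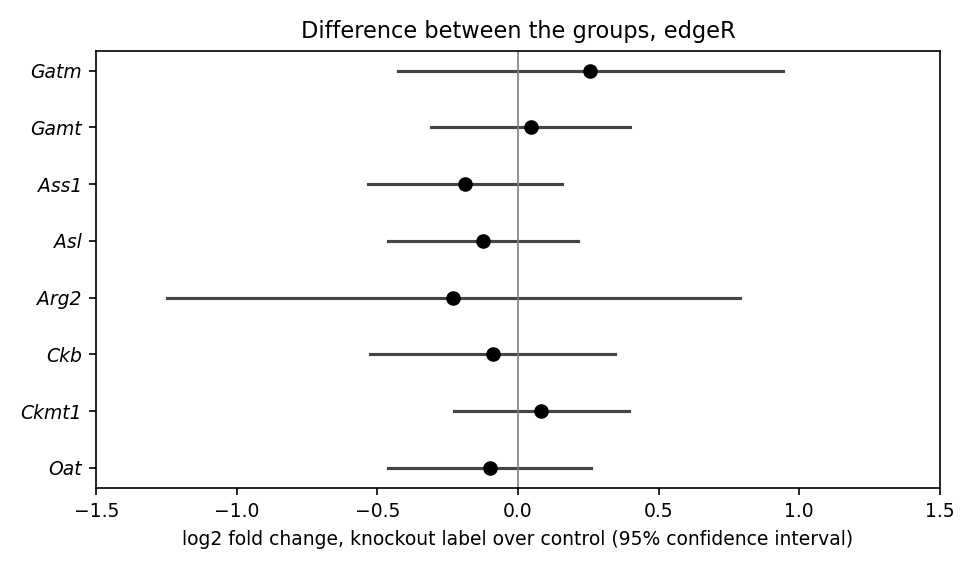
Points give the log2 fold change of each gene, knockout-labelled libraries over controls, and lines its 95% confidence interval from edgeR. All 8 intervals cross 0, from the narrowest for Ckmt1 (-0.23 to 0.39) to the widest for Arg2 (-1.25 to 0.79).

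The intervals give the sizes of change that these libraries leave possible. For Ass1 the interval runs from 0.691-fold to 1.11-fold and for Asl from 0.725-fold to 1.16-fold of the control level. For Gamt, Ckmt1 and Oat the bounds were 0.807-fold to 1.32-fold, 0.854-fold to 1.31-fold and 0.726-fold to 1.20-fold. Gatm could lie anywhere from 0.743-fold to 1.92-fold, and Arg2 from 0.420-fold to 1.73-fold, so that a doubling of Gatm was just outside the interval and a halving of Arg2 within it. A p-value that misses the threshold does not show that the groups were alike.

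The other genes of the pathway were taken from 6 lists of 56 genes, of which 47 were tested and 0 passed the threshold in either direction, with edgeR or with DESeq2. By sign 25 stood higher and 22 lower, and their median log2 fold change was 0.00, beside -0.01 over all tested genes. At an unadjusted p under 0.05 stood 4 of the 47, beside 3.23% of all tested genes, and the groups did not overlap for 3 higher and 3 lower. Over all tested genes these shares were 4.1% and 4.08%. As shares of the 47, the pathway counts lie above those of all tested genes, furthest so for the unadjusted p. They rest on few genes, and the difference was not tested. The 5 listed genes of citrulline supply and the hepatic urea cycle that fell below the expression filter were Cps1, Otc, Arg1, Nags and Slc25a2. Cps1 and Otc, which form citrulline in liver and intestine, had 1 count in control 1 and 0 in all libraries, respectively. Arg1, the liver arginase, had 1 count in control 3 and Nags at most 4 in any library.

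Among the carriers and enzymes that supply the route, all 4 tested genes stood higher, with a median of 0.16. Slc25a15, the mitochondrial ornithine carrier, stood at 222, 255 and 229.7 CPM in the knockout-labelled libraries, and at 247, 199 and 238 CPM in the controls. Its groups overlapped, with control 2 the lowest, and its log2 fold change was 0.05 (SE 0.12).

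Of 8 transporters of arginine and other cationic amino acids, 7 stood lower, with a median of -0.20, and none passed. Slc3a1, a subunit of the apical cystine and arginine exchanger, was at 0.00 (SE 0.11). Slc3a2, the basolateral heavy chain, was at -0.11 (SE 0.10) and the mitochondrial carrier Slc25a29 at -0.58 (SE 0.29). Slc7a1, a plasma membrane arginine carrier named after its values were seen, did not overlap between groups, with 10.1 to 12.0 CPM against 12.4 to 17.7 CPM.

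Creatine transport was well represented. Slc6a8, the creatine transporter, stood at 299, 300.3 and 351 CPM against 286, 286 and 329 CPM, a log2 fold change of 0.08 (SE 0.12). Slc16a12, a carrier that lets creatine leave cells, was at -0.15 (SE 0.12). The controls of both overlapped the knockout-labelled libraries.

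Genes that use arginine for nitric oxide, or that break down methylarginines and agmatine, went both ways, with 5 of 9 higher and a median of 0.06. Ddah1 and Agxt2, which degrade dimethylarginine, were at 0.12 (SE 0.12) and 0.13 (SE 0.10). Nos3, the endothelial nitric oxide synthase, was at -0.23 (SE 0.18).

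Among 15 tested genes of ornithine, polyamine and proline metabolism, 8 stood higher, with a median of 0.04. Odc1 was at 0.26 (SE 0.53), and Aldh4a1, of proline breakdown, at -0.06 (SE 0.13). Prodh2, hydroxyproline dehydrogenase, had 47.2 to 69.4 CPM against 69.8 to 81.4 CPM, with no overlap and a log2 fold change of -0.38 (SE 0.15). Its groups nearly touched, at 69.37 CPM in knockout 1 and 69.81 CPM in control 3. In FPKM they overlapped, with knockout 1 at 45.18 above control 1 at 43.68 and control 3 at 42.63. Oaz2, an antizyme that restrains ornithine decarboxylase and named after its values were seen, stood at 153.5, 145.4 and 143.9 CPM against 143.6, 116.1 and 133.0 CPM, so that the groups nearly touched without overlap.

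The list of glycine and methyl group supply held the pathway gene of lowest p. Gnmt, which like Gamt takes methyl groups from S-adenosylmethionine, stood at 22.5, 22.4 and 23.4 CPM in the knockout-labelled libraries, and at 33.8, 32.0 and 31.3 CPM in the controls. Each group was narrow and they did not overlap, yet the adjusted p was 0.999 in edgeR (unadjusted 0.00102, log2 fold change -0.51, SE 0.10). Ahcy, which removes the S-adenosylhomocysteine that both methyltransferases produce, was at -0.03 (SE 0.13), and Dld, a subunit of the glycine cleavage system and of other complexes, at 0.17 (SE 0.10) without overlap. Over the 9 genes 6 stood higher, with a median of 0.08.

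**Figure D5:**
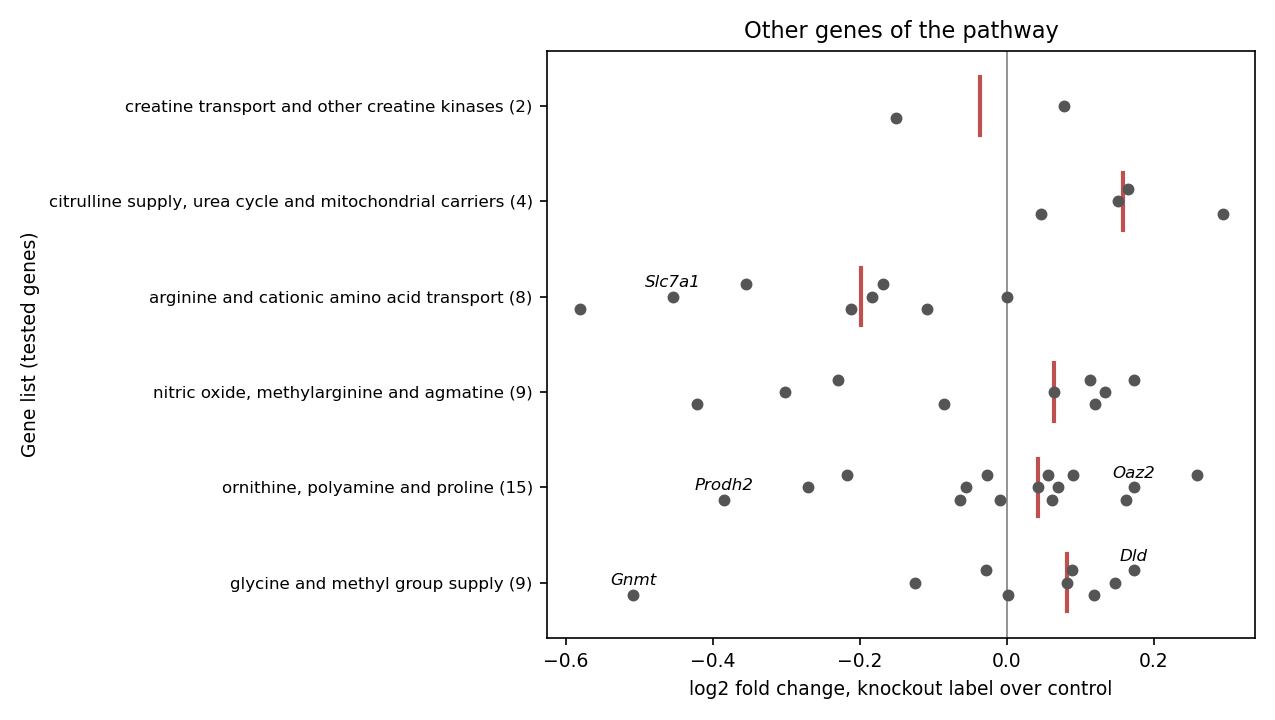
Each point is a tested gene of a pathway list (rows, number of genes in brackets) at its log2 fold change, knockout-labelled libraries over controls, with the list's median as a red line. Names mark 5 genes whose groups do not overlap in CPM. Dld lies at 0.17 and Gnmt at -0.51, and none of the points passed the threshold.

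Profiles over the 6 libraries were compared by the root mean square (RMS) difference of log2 CPM after subtracting each gene's mean, among 9334 genes at 10 CPM or more, as a description with no test. Within the 8 genes the closest pair was Asl with Ckmt1, at an RMS difference of 0.12, and the farthest Arg2 with Ckb, at 0.79. Oat was most like Sort1 and Phldb2, and Ckmt1 most like Oplah and Atp5sl, each within 0.05. Asl was nearest to Zfp219 and Baiap2, Ass1 to Nabp1 and Acaca, Ckb to Pla2g6 and Psmb3, and Gamt to Ppp2r2d and Map7d1, each within 0.05. The more variable members had looser neighbours, Arg2 with Pigr (0.15) and Folh1 (0.18), and Gatm with Chic1 (0.15) and Zkscan1 (0.17). Pigr, the receptor that carries immunoglobulins across epithelia, shared with Arg2 a peak in control 2, at 716 CPM against 243 to 455 CPM in the other 5 libraries.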

How the data were processed

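Per the submitters' processing notes, the tools include HISAT2 2.0.1, Cuffdiff 2.2.1 and cutadapt 1.9.1, and the build is GRCm38. The authors deposited estimated counts, not normalized, and FPKM values for 128603 transcripts; the sources used here do not give the counting program or strandedness. The authors' FPKM values match exonic length and the column total (within 2% for 93.9% to 94.4% of transcripts at 50 FPKM or more). Estimated counts were summed per symbol, rounded, and tested with edgeR 4.0.16 (quasi-likelihood, TMM, default filter with minimum count 10, Benjamini-Hochberg over 15017 genes, adjusted p under 0.05; R 4.3.3). Each SE was taken from the log2 fold change and its F statistic. In simulated data of 15017 genes, 100 genes were changed 2-fold and 100 changed 4-fold, all with a mean count above 50. The test recovered 72% of the 2-fold and 97% of the 4-fold changes, with 13 false calls. With so many changed genes the adjusted threshold is easier to pass, so these shares are not the power for a single member. The 8 members and all lists were chosen with earlier results of these data known. Named genes were the members; of each pathway list the 2 most abundant, any called and the one of largest change at 2 CPM or more; and 2 nearest profiles per member. The depth was 16061435 to 21261226 counts, so 3 counts are 0.141 to 0.187 CPM on these totals, without the TMM adjustment used for other CPM values. PCR reads are not independent molecules, so such limits cover counting error only. Alternatives were median-of-ratios scaling, no filter, the replicate number as a block, DESeq2 1.42.0, limma 3.58.1 on log2(FPKM + 1) or log2(FPKM + 0.1) for genes reaching 1 FPKM in 3 libraries, sums per gene ID, each library left out and, added after seeing the data, Ass1 with Gm5424. The values of 1 listed pathway gene are not reported here.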

Additional observations from a re-analysis of the deposited data

How the results depend on the processing

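No member and no pathway gene passed the threshold under any of the 13 alternatives planned for each, nor Ass1 when summed with Gm5424, and the lowest adjusted p of a member was 0.889 (Oat). The signs of 7 members moved when 1 library was left out. Ass1 stayed lower in each, from -0.30 to -0.07. The log2 fold change ran from -0.038 to 0.54 for Gatm, -0.035 to 0.17 for Gamt, -0.26 to 0.0020 for Asl, -0.49 to 0.45 for Arg2, -0.27 to 0.093 for Ckb, -0.064 to 0.18 for Ckmt1 and -0.21 to 0.072 for Oat. The log2 difference of ratios ran from -0.24 to 0.33 for Arg2/Oat, -0.15 to 0.11 for Ass1/Asl, -0.34 to 0.021 for Ckb/Ckmt1 and -0.21 to 0.48 for Gatm/Gamt. The median over the 47 pathway genes ran from -0.043 to 0.046.
Genes past the threshold were 3 higher and 2 lower without a filter, 13 and 2 with DESeq2, and 0 higher with limma at either pseudocount; with 1 library left out they were 0 to 2 higher and 1 to 4 lower. The cause of these moves was not tested.
Whether the replicate numbers pair the libraries cannot be settled from 3 pairs. Same-numbered deviations, centred within each group, correlated at 0.10, -0.10 and 0.11. Of the knockout libraries, 2 of 3 were nearest to their own number. With the replicate block 1 gene was higher and 1 lower, no member or pathway gene passed, and Gatm stood at 0.18 and Arg2 at -0.10. Arg2 had the fewest counts of the members, at 52 to 179, and the part of depth in its spread was not tested.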
